A study of Mus musculus with 35 samples.

Results

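KLF4 binding on day 3 was compared with KLF4 binding on day 9 of reprogramming of mouse embryonic fibroblasts to pluripotency. The comparison uses 4 of the 22 deposited peak lists of the series, 2 libraries for each day. Peaks of the 4 lists on chromosomes 1 to 19 and X were merged into 55135 regions. A region was called lost when both day 3 libraries and no day 9 library had a peak there, gained in the converse case, and common when all 4 libraries had one. There were 5385 lost regions (9.77% of all merged regions), 4941 gained regions (8.96%) and 10388 common regions (18.8%). The other 34421 regions had a peak in only part of the libraries of a day and were left undecided.

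All fibroblasts (strain label C57BL/6 x 129) carried the reverse transactivator M2rtTA at the Rosa26 locus and a doxycycline-driven cassette at the Col1a1 locus with the reprogramming factors Pou5f1, Klf4, Sox2 and Myc (OKSM). The medium held doxycycline at 1 µg/ml and ascorbic acid at 50 µg/ml. Day 3 cells were taken in bulk, whereas day 6 and day 9 cells had been sorted for the surface marker SSEA1. Day and sort thus cannot be told apart between day 3 and day 9, and a mixed population at day 3 and a change within cells give the same lists. Uninduced fibroblasts (MEF) and V6.5 embryonic stem cells (ESC) in serum and LIF, or with 1 µM MEK inhibitor and 3 µM GSK3 inhibitor (2i), gave the other lists. The sample titles hold a code, which was EA-3702 for both day 9 libraries and EA-3702 and DG-4040 for the day 3 libraries. This code is read here as a batch, which the labels do not state. The labels number the libraries as replicates without naming separate cultures, so p-values measure the spread between libraries.

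KLF4 is a zinc finger transcription factor that binds GC-rich and CACCC-type sequences and can activate or repress transcription. It is expressed in differentiating epithelia and, as one of the reprogramming factors, is supplied by the cassette from the start of induction. Acetylation of histone H3 at lysine 27 (H3K27ac) marks active promoters and enhancers. Reprogramming fibroblasts are known to lose mesenchymal gene expression, pass through a mesenchymal-to-epithelial transition and only later switch on the pluripotency network of the cell itself.

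Sequences are shown for the promoter windows with the best-ranked region that covered at least 50% of the window, 2 for each class, since these are the places where the class can be read beside the letters KLF4 is known for. Each window runs from 250 bases before to 50 bases after a RefSeq transcript start on GRCm38.p6 and is printed 5′ to 3′ on the strand of the gene. Capitals mark the letters GGGNGTGG or, on the other strand, CCACNCCC.
Lost, at Ablim1 (an actin-binding LIM protein, chr19:57197582-57197881, minus strand), and at Il6 (the cytokine interleukin 6, chr5:30012864-30013163, plus strand):
Ablim1: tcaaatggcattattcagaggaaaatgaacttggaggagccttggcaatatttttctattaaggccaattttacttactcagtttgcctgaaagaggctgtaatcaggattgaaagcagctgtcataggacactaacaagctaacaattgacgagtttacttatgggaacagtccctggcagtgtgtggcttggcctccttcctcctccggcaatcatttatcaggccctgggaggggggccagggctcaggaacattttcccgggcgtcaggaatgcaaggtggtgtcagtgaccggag
Il6: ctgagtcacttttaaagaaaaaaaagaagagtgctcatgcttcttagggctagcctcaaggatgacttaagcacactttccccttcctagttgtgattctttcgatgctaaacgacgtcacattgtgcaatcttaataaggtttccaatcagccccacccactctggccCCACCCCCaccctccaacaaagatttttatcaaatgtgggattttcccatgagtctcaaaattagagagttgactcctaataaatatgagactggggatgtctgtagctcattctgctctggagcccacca
Gained, at Nr5a2 (an orphan nuclear receptor of the pluripotency network, chr1:136953581-136953880, minus strand), and at Nanog (a homeobox factor of that network, chr6:122707239-122707538, plus strand):
Nr5a2: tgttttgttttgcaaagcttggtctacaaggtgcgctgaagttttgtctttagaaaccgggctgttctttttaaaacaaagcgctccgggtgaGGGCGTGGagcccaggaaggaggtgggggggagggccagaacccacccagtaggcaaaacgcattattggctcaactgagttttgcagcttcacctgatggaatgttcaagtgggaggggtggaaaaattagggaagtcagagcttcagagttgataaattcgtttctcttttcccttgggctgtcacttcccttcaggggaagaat
Nanog: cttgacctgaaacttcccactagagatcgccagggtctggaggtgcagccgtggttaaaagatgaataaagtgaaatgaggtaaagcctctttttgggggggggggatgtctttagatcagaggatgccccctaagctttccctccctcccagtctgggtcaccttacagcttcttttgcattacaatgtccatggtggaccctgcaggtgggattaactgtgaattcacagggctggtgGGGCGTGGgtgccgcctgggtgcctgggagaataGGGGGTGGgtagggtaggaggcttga
Common, at Arhgap28 (a GTPase-activating protein, chr17:68004059-68004358, minus strand), and at Tubb2a (a beta tubulin, chr13:34077959-34078258, minus strand):
Arhgap28: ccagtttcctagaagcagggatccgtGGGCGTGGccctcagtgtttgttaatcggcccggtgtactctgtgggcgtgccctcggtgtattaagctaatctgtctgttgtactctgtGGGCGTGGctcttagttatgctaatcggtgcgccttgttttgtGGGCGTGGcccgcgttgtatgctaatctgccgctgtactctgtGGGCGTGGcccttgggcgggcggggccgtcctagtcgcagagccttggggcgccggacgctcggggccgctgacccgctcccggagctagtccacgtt
Tubb2a: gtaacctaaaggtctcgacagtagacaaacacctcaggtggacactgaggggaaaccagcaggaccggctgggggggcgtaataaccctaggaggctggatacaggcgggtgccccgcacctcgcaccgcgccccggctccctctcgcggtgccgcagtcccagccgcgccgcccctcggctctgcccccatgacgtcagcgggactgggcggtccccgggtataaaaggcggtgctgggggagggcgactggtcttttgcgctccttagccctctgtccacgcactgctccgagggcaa

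The Arhgap28 window held 4 matches, whose first bases lie at positions -224, -134, -91 and -48 from the transcript start. Nanog had 2 matches, at positions -10 and 25, Nr5a2 had 1 at position -157, and Il6 had 1 at position -81. Ablim1 and Tubb2a had 0 matches in these 300 bases, and so had the next window in rank of each class, at Pfkfb3 (lost), Marchf9 (gained) and Klf3 (common). A match describes letters and is not a shown binding site. Of all 21045 windows of the table, 19.6% held these letters on either strand. The share was 34.2% of the 3589 windows that overlapped a common region, 26.9% of 376 with a gained region, 20.0% of 514 with a lost region and 13.9% of 12468 with no region of any of the 4 libraries. In the same order the median GC content was 66.0%, 61.7%, 63.7% and 51.0%. The AP-1 letters TGANTCA were in 3.82%, 6.65%, 7.0% and 9.12% of these groups and in 7.04% of all windows. The octamer letters ATTTGCAT or their complement were in 1.56% to 2.17%. These counts describe promoter windows only. The sequence of the other regions was not used here.

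The 4 lists differed more at day 3 than at day 9. Day 3 had 34404 peaks in batch EA-3702 and 29493 in batch DG-4040, with a median width of 375 and 238 bp and a median deposited fold enrichment of 4.33 and 3.19. Day 9 had 24004 and 26003 peaks, with median widths of 316 and 317 bp and median folds of 4.35 and 4.49. By the authors' q-values, 44.3% of the DG-4040 day 3 peaks were at 0.01 or below, against 66.5% to 70.6% in the other 3. Bases covered by both lists over bases covered by either (the Jaccard index) were 0.577 for the day 9 pair, 0.314 for the day 3 pair and 0.271 to 0.298 for the pairs across days. The day 3 libraries were therefore hardly closer to each other than to the day 9 libraries. Depth is unknown, since the files hold no read counts, and a region without a peak may still hold signal.

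Most of the merged regions that could not be placed had a peak in a single library. There were 11370 such regions in the day 3 library of batch EA-3702, 8820 in that of batch DG-4040, and 2407 and 3521 in the day 9 libraries. Among the 17905 regions with a peak in both day 3 libraries, 30.1% were lost and 58.0% were common. Among the 19177 with a peak in both day 9 libraries, 25.8% were gained and 54.2% were common. The plot of regions by combination of libraries gives all 15 combinations.

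**Figure D1:**
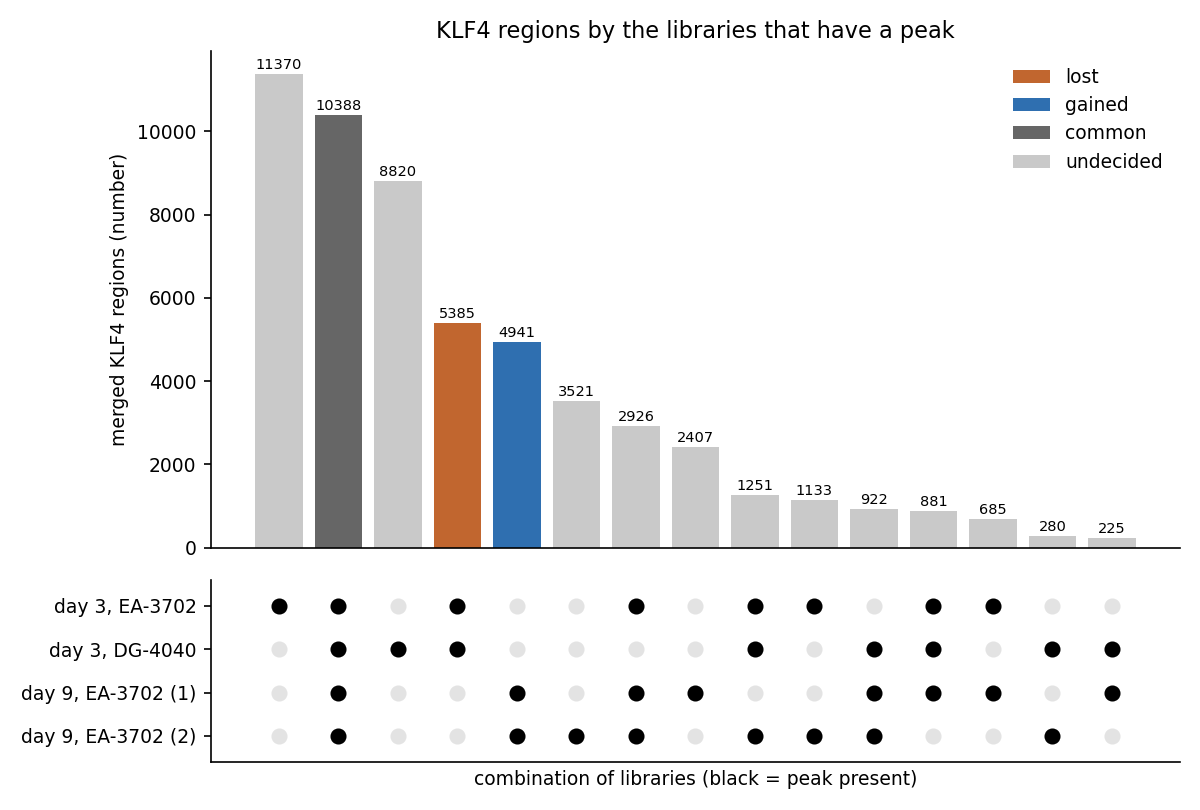
Number of merged KLF4 regions (vertical axis) for each of the 15 combinations of the 4 libraries, with black dots for the libraries that have a peak. The lost (5385) and gained (4941) classes are similar in size, and both are smaller than the common class (10388) and the regions of a single day 3 library (11370 and 8820).

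The size of the lost class rested on having 2 day 3 libraries. With batch EA-3702 alone, which leaves out the DG-4040 library, there were 16848 lost, 5874 gained and 13320 common regions. Without the day 3 library of batch EA-3702 there were 14870 lost, 8022 gained and 11344 common regions. Leaving out either day 9 library moved the gained count to 8546 or 7438 and the lost count to 6272 or 6649. A class that needs 1 library in place of 2 admits every peak of that library, so these counts are not estimates of the same quantity. With the same number of top peaks from each list (24004), there were 3618 lost and 5838 gained regions. With a q-value of at most 0.01 there were 2787 and 3865, and with peaks covering 50% of the region 3546 and 4826. Under these 3 settings gained regions outnumbered lost ones. They also did without either day 9 library, where a gained region needs 1 library and a lost one still needs 2. Lost regions outnumbered gained ones with the top 50% of each list (3421 and 2735) and with 200 bp about each midpoint (5357 and 5226). The order of the 2 classes is therefore not a stable result. No test was made of the counts, since 2 libraries against 2 cannot reach the threshold and the classes are defined on these libraries.

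Strong KLF4 peaks were mostly common to both days. Regions of each library were ranked by the deposited −log10 p and split into deciles. In the strongest decile of the EA-3702 day 3 library 82.8% of regions were common and 9.79% lost, and in the fourth decile 35.0% were common and 21.0% lost. In the strongest deciles of the day 9 libraries 85.2% and 86.0% were common, and 7.40% and 7.25% gained. Weak peaks were less often than strong ones in both libraries of a day, which the classes require. In the weakest decile 19.4% (EA-3702) and 34.6% (DG-4040) of day 3 regions had a peak in the other day 3 library. For the day 9 libraries these shares were 47.1% and 35.5%. The shares of lost and gained regions thus fall again in the weakest deciles. Among regions with a peak in both libraries of the day, the lost share went from 9.94% in the strongest to 58.0% in the weakest decile of the EA-3702 day 3 library, and from 6.4% to 47.5% in that of batch DG-4040. The gained share went from 7.40% to 44.4% and from 7.26% to 46.9% in the day 9 libraries. The median fold in lost regions was 4.61 and 3.15 in the EA-3702 and DG-4040 libraries, against 6.61 and 3.98 in common regions of the same libraries. For gained regions it was 4.12 and 4.45, against 5.52 and 6.02. These ranks come from the libraries that define the classes and are a description.

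**Figure D2:**
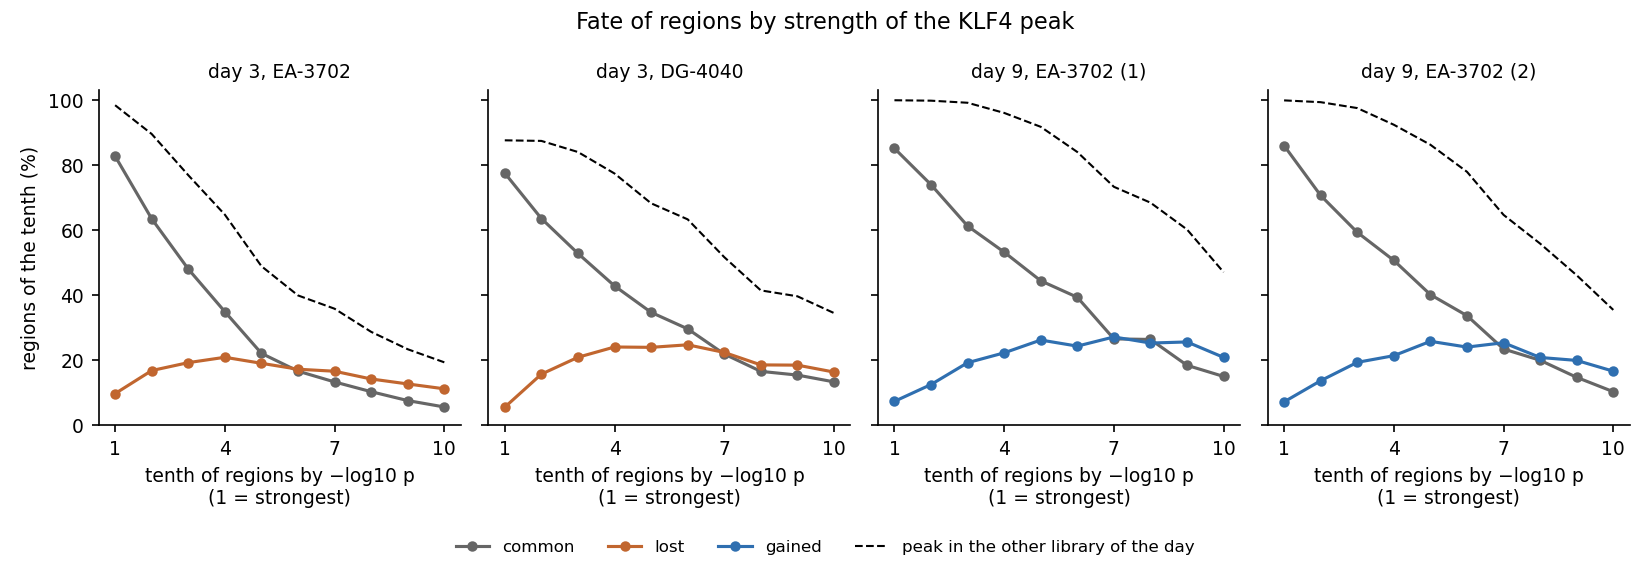
Share of regions (vertical axis, %) that were common, lost or gained in each decile of a library's regions, ordered by the deposited −log10 p of the KLF4 peak from the strongest (1) to the weakest (10), with 1 panel per library. Dashed lines give the share with a peak in the other library of the same day, which is 87.7% in the strongest decile of the DG-4040 day 3 library and 98.5% to 100% in the strongest deciles of the other 3.

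The strongest decile of the DG-4040 day 3 library stood apart. Only 87.7% of its regions had a peak in the other day 3 library, and 344 of them had a peak in none of the other 3 libraries. At day 6, 17 of these 344 regions (4.94%) had a peak in the library of batch DG-4040 and 0 in that of batch EA-3702, and each of the 4 ESC libraries had a peak in 1 of them. The EA-3702 day 3 library had 16 regions of this kind and the day 9 libraries had 0. These regions are not in the lost class, which needs both day 3 libraries. What they are was not tested.

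The 10 best-ranked lost regions lay mostly within or far from genes. The first was in Fmnl2, a formin that builds actin filaments (chr2:52958333-52959343 on mm10), with folds of 18.2 and 9.32 in the EA-3702 and DG-4040 day 3 libraries. It had H3K27ac in every MEF, day 3, day 6, day 9 and ESC library. A further 2 were in Tjp1, which codes for the tight junction protein ZO-1. The one at chr7:65381961-65382871 had folds of 20.0 and 9.58, and that at chr7:65450090-65450648 had 17.7 and 9.05. In Sparc, a matricellular glycoprotein of connective tissue, the region chr11:55416330-55417128 had folds of 17.2 and 10.4. The rest were in Pitpnm3 and Rbfox2, 48.2 kb from Resf1, 1.88 kb from Plekho2, and over 100 kb from any protein-coding gene end at 2 places. All but the second Tjp1 region, with 1 library, had a KLF4 peak in both day 6 libraries, against 18.5% of all lost regions. Of the 10, only the regions in Fmnl2 and near Plekho2 had H3K27ac in every library. No ESC library had it at the first Tjp1 region, in Pitpnm3 and Rbfox2, near Resf1 and at the 2 places far from genes. Over all lost regions, 66.0% had no H3K27ac in ESC.

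Among the 10 best-ranked gained regions, the one at Nr5a2 covered a transcript start. It lay at chr1:136953489-136954306 and had folds of 19.9 and 23.4 in the first and second day 9 library. The strongest were 20.8 kb from Krt80, an epithelial keratin (chr15:101327195-101327773, folds 23.5 and 27.4), and 7.32 kb from Gapvd1, a guanine exchange factor of endocytosis (chr2:34668588-34669128, folds 22.4 and 22.0). Others were in Tnrc18, Gal3st3, Gmds and Pcmtd1, 2.77 kb from the potassium channel gene Kcnj1, and at 2 neighbouring places on chromosome 5 with no protein-coding gene end within 50 kb. Every one of the 10 had H3K27ac in both day 9 libraries and in no MEF or day 3 library. All except those at Krt80 and Gmds had it in both ESC libraries too. Over all gained regions, 55.0% had H3K27ac in both day 9 libraries and 32.1% in both ESC libraries. It was absent from every MEF library at 85.1% and from every day 3 library at 86.6%.

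The 10 best-ranked common regions had better mean ranks by −log10 p than those of the other classes, while their folds overlapped. Day 9 folds were 17.7 and 18.4 in Akap12, for example, against 23.5 and 27.4 at the gained region near Krt80. At Arhgap28 (chr17:68003565-68004845) the folds were 47.1 and 28.0 at day 3 and 28.6 and 29.4 at day 9. The others were in or at Map4k4, Flrt1, Tubb2a, Src, Klf3, Esrra and Akap12, 33.0 kb from Grap and 18.4 kb from Klf13. Klf3 and Klf13 code for relatives of KLF4, and Src for a tyrosine kinase of adhesion signalling. All 10 had a KLF4 peak in each day 6, serum ESC and 2i library. Over all common regions, 84.8% had one in both day 6 libraries and 43.3% in all 4 ESC libraries.

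Common regions were near transcript starts more often than the other classes. Starts were listed for 17274 of 21631 protein-coding genes, so the shares are lower bounds. Within 1 kb of a listed start lay 30.3% of common, 12.8% of lost and 7.97% of gained regions, against 2.3%, 2.08% and 1.8% after the regions were shifted by 1 Mb. The median distance to a listed start was 16.8 kb for common, 36.3 kb for lost and 34.6 kb for gained regions. Gene bodies held 58.9% of lost, 50.4% of gained and 59.1% of common regions, against 46.6%, 44.6% and 46.6% after the shift.

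H3K27ac, which played no part in choosing the classes, was found at more gained regions in each day 9 library than in any day 3 library, and was present at about as many lost regions on day 9 as on day 3. At gained regions 11.1%, 8.91% and 6.82% had an H3K27ac peak in the 3 day 3 libraries, 12.8%, 6.27% and 5.48% in the 3 day 6 libraries, and 61.7% and 61.0% in the 2 day 9 libraries. The day 9 values lay far above those of days 3 and 6, which overlapped. At lost regions the share was 48.8% ± 7.06 on day 3 (SD, n = 3), 21.5% ± 5.80 on day 6 (SD, n = 3) and 46.9% ± 1.19 on day 9 (SD, n = 2). The day 9 values at lost regions, 46.0% and 47.7%, fell within the range of day 3, which ran from 42.6% to 56.5%. Common regions went from 65.0% ± 5.43 to 53.2% ± 9.35 and 89.3% ± 0.565. Peaks shifted by 1 Mb gave at most 7.16% in any library and class.

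Before induction, lost and gained regions already differed. In the 2 MEF libraries 46.2% ± 0.0657 of lost and 13.4% ± 0.114 of gained regions had H3K27ac (SD, n = 2). In ESC it was 30.7% ± 0.0131 and 36.7% ± 1.79 (SD, n = 2).

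The lists of H3K27ac differ in length, with 17493 to 22462 peaks at day 6 against 41471 or more elsewhere. A share within each library was therefore used, namely the gained regions with H3K27ac over the gained and lost regions with it. It was 14.3% ± 1.29 on day 3 (SD, n = 3), 25.1% ± 3.87 on day 6 (SD, n = 3) and 54.6% ± 0.817 on day 9 (SD, n = 2), beside 21.0% ± 0.165 in MEF and 52.3% ± 1.21 in ESC (SD, n = 2 each). The days did not overlap. The slope was 6.48 percentage points per day (p = 0.00179 by a two-sided exact permutation of stages among libraries, which can give no smaller value with its 560 arrangements; 0.00268 after adjustment over 3 tests). In batch DG-3458 alone it averaged 13.8% on day 3 and 22.8% on day 6. Within batch EA-3702 it was 15.2% on day 3, 29.5% on day 6 and 54.6% on day 9. With classes made from batch EA-3702 alone the slope was 4.25 (p = 0.00179, exact permutation). The mean shares were then 8.27%, 14.2% and 34.9% on days 3, 6 and 9. With classes from the same number of top KLF4 peaks they were 28.5%, 46.4% and 68.4%, so the level of the share depends on the classes. The share rose from day 3 to day 6 without a rise at gained regions. With the main classes, 8.93% of gained regions had H3K27ac on day 3 and 8.20% on day 6. For lost regions these means were 48.8% and 21.5%.

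The percentage of gained regions with H3K27ac minus that of lost regions was -32.8 ± 0.180 points in MEF, -39.9 ± 4.99 on day 3, -13.3 ± 1.83 on day 6, 14.5 ± 1.65 on day 9 and 5.98 ± 1.78 in ESC (SD, n = 2, 3, 3, 2 and 2). The between-stage F was 144 (p = 1.44e-05 by exact permutation with 1663200 arrangements, 4.33e-05 after adjustment). It was 34.4 (exact permutation, p = 0.000253) when an overlap had to cover 50% of the shorter interval, 237 with classes from batch EA-3702 alone and 396 without the EA-3702 day 3 library. Day 3 had the lowest values and day 9 the highest. With the same number of top H3K27ac peaks from each library (17493), the shares of gained regions were 4.95% ± 0.843 on day 3 and 33.9% ± 1.06 on day 9, and of lost regions 32.8% ± 4.93 and 24.0% ± 0.197 (SD, n = 3 and 2). Under that alternative both day 9 values of the lost class were lower than the day 3 mean, so that the likeness of days 3 and 9 at lost regions holds for whole lists only.

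**Figure D3:**
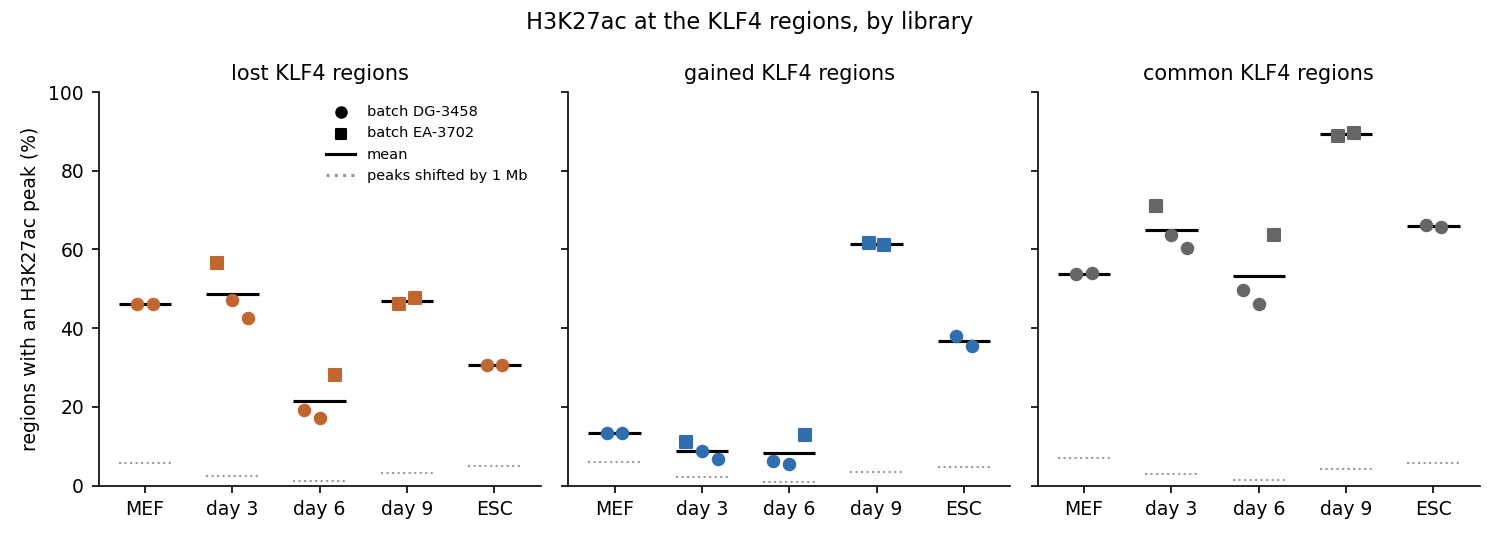
Share of lost, gained and common KLF4 regions (vertical axis, %) with an H3K27ac peak in each library, by stage. Circles and squares mark batches DG-3458 and EA-3702, black lines are means and dotted lines are means after the peaks were shifted by 1 Mb. Gained regions go from 8.93% on day 3 to 61.4% on day 9, and lost regions are at 48.8% and 46.9%.

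Region by region, 1745 lost regions (32.4%) had H3K27ac in at least 2 libraries on both day 3 and day 9, and 567 (10.5%) had it on day 3 and in no day 9 library. Of the gained regions, 2129 (43.1%) had it on day 9 and in no day 3 library, while 6 (0.121%) showed the converse. Gained regions with H3K27ac on day 9 included 1117 (22.6% of the class) with it in neither MEF nor ESC, and 787 (15.9%) with it in ESC and not in MEF. No H3K27ac library of any stage had a peak at 21.2% of lost, 23.6% of gained and 4.43% of common regions.

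The position of a region moved with these shares. At the 4547 gained regions beyond 1 kb of a listed start, H3K27ac was at 5.56% ± 1.66 on day 3 (SD, n = 3) and 59.4% ± 0.529 on day 9 (SD, n = 2). At the 394 near a start it was 47.9% ± 7.85 and 84.5% ± 0.359. At the 4698 lost regions beyond 1 kb it was 44.0% ± 7.46 and 40.9% ± 1.32, and at the 687 near a start 81.5% ± 4.46 and 88.0% ± 0.309. Gained regions were thus higher on day 9 at both kinds of place. Lost regions beyond 1 kb had day 9 values within the range of day 3, and those near a start had day 9 values of 87.8% and 88.2%, just above the highest day 3 value of 86.6%.

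The KLF4 libraries of day 6 and of ESC had not been used to choose the classes. On day 6 the library of batch EA-3702 had a peak at 33.0% of lost and 27.7% of gained regions, and that of batch DG-4040 at 34.4% and 44.8%. The likeness of the day 6 libraries at lost regions was the sum of opposite differences. Within 1 kb of a listed start the EA-3702 library had a peak at 62.3% of lost and 71.6% of gained regions, and the DG-4040 library at 32.9% and 34.0%. Beyond 1 kb these shares were 28.7% and 23.9% in the EA-3702 library and 34.7% and 45.8% in the DG-4040 library. The order of the day 6 libraries thus turned with position in both classes. The serum ESC libraries bound 14.1% and 26.4% of lost and 29.1% and 46.3% of gained regions, and the 2i libraries 17.3% and 18.6% of lost and 27.2% and 31.3% of gained regions. Common regions were bound at 90.5% and 92.3% on day 6, and at 56.8% to 76.1% in the 4 ESC libraries.

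All 4 ESC libraries had a peak at a larger share of gained than of lost regions. The difference was 15.1, 20.0, 9.91 and 12.8 percentage points there, and -5.27 and 10.4 points on day 6. In ESC it lay beyond 1 kb of a listed start, at 17.5, 23.9, 12.4 and 16.3 points, while within 1 kb it was 1.68, -1.64, 5.28 and -3.57 points. Over all positions day 6 and ESC overlapped, and their means differed by 11.9 points (p = 0.133 by a two-sided exact permutation with 15 arrangements, also 0.133 after adjustment, where 0.0667 is the lowest value possible). With classes from batch EA-3702 alone the difference was -0.71 points, and without the day 6 library of batch EA-3702 it was 4.05 points. With 2 libraries against 4 this test could not reach the threshold, so it does not bear on whether day 6 and ESC differ. In no day 6, serum ESC or 2i library was there a peak at 39.7% of lost, 27.1% of gained and 1.15% of common regions.

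**Figure D4:**
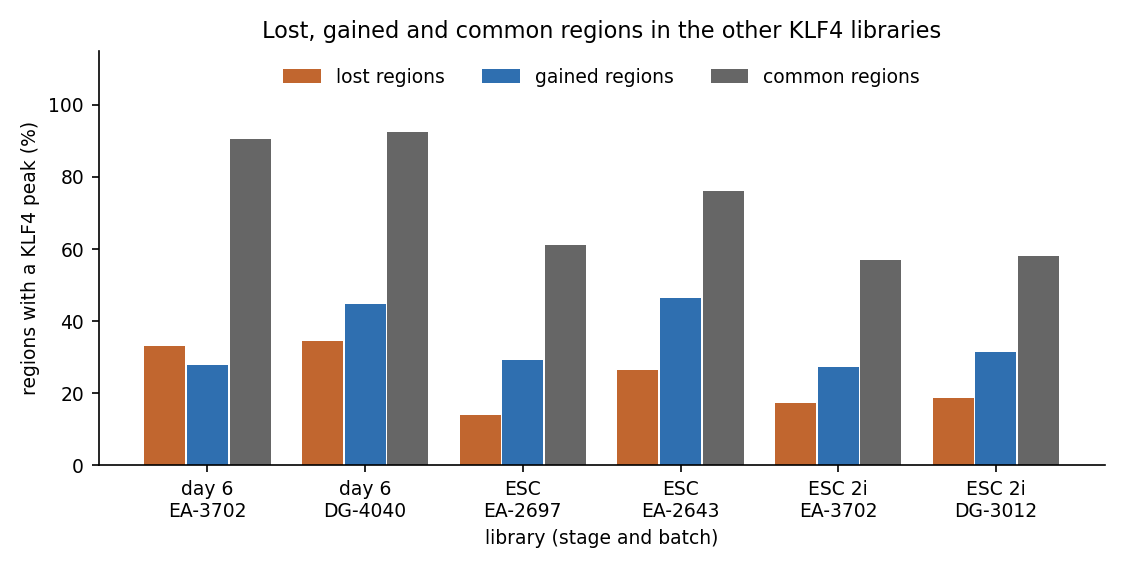
Share of lost, gained and common regions (vertical axis, %) with a KLF4 peak in each of the 6 libraries not used to choose them. Gained regions exceed lost ones in every ESC library and in the DG-4040 day 6 library, and lie below them in the EA-3702 day 6 library (27.7% against 33.0%).

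For genes, a region was counted when it lay in the gene or within 10 kb of it. A lost region was found at 16.8%, a gained region at 15.5% and a common region at 36% of 21631 protein-coding genes, with a median of 0 lost and 0 gained regions per gene. Genes with a common region were 6 of 20 fibroblast factors, 8 of 20 matrix genes, 9 of 14 AP-1 genes, 16 of 20 epithelial genes, 12 of 20 reprogramming genes, 10 of 22 pluripotency genes and 1 of 12 markers of other lineages. The share was well above that of all genes in the AP-1, epithelial and reprogramming lists. It was nearer to it in the matrix (40%) and pluripotency (45.5%) lists. The fibroblast factors (30%) and the markers of other lineages (8.33%) had lower shares. The part of common regions in the lost and gained counts was not tested. The 7 gene lists below, with 128 genes, are read against these shares, without a test. Long genes hold more regions, so the median gene length is given beside each list; over all genes it was 17.3 kb.

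Fibroblast factors had 19 lost, 7 gained and 8 common regions. Among these 20 mesenchymal genes, mostly transcription factors and surface genes (median length 54.3 kb), 9 (45%) had a lost region, against 16.8% of all genes. A gained region was found at 4 (20%), near the 15.5% of all genes. In Runx2, a runt factor of skeletal mesenchyme, a lost region (chr17:44767294-44767921) had day 3 folds of 7.56 and 8.06, and a gained one (chr17:44547776-44548389) had day 9 folds of 11.5 and 11.8. Runx1 also had both kinds. Meox2, a mesodermal homeobox gene, had a lost region with folds of 10.3 and 5.32. Zeb2, a repressor of epithelial genes, had 2 lost regions, the stronger of which spans an end of the gene (chr2:45116985-45117644, folds 10.5 and 4.53). Snai1, another such repressor, had 3 gained regions and 0 lost ones, and Smad3, the TGF-beta signal transducer, had 4 lost and 1 gained.

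Among 20 matrix and contractile genes (median length 27.5 kb), 10 had a lost region and 1, the calponin gene Cnn1, a gained one. The list held 11 lost, 1 gained and 14 common regions. Besides Sparc they included Fbn1, which codes for fibrillin of elastic microfibrils (folds 12.7 and 4.31), and the collagen genes Col6a2 (7.02 and 3.79) and Col5a2 (6.33 and 3.73). Of the 11 lost regions of this list, 8 had H3K27ac in both MEF libraries, 5 in both day 9 libraries and 2 in both ESC libraries. None of the 4 ESC libraries had a KLF4 peak at 8 of them. Over all lost regions the shares were 43.6% (MEF), 41.3% (day 9), 27.4% (ESC) and 66.6% (no KLF4 peak in ESC), so that the counts apart from MEF are near those of the class.

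AP-1 and related stress-responsive factors, a list of short genes (14 genes, median length 5.59 kb), had a lost region at 8 genes and a gained region at 0. The median was 1 lost region per gene. Cebpd and Cebpb, leucine zipper factors of the acute-phase and adipogenic response, had lost regions at the gene's edge, chr16:15886991-15887870 with folds of 7.53 and 3.99 and chr2:167688611-167689043 with 8.25 and 2.93. Fosl2, an AP-1 subunit, had 3 lost regions and Atf3 2. Maff, a small Maf factor, had 1. A KLF4 peak was present in all 4 ESC libraries at 4 of the 11 lost regions of this list, and H3K27ac in both ESC libraries at 7. H3K27ac was present in both day 9 libraries at 8. In the same order, the shares over all lost regions were 6.69%, 27.4% and 41.3%.

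Epithelial genes had the most gained regions of any list. Among 20 genes of junctions, keratins and epithelial regulators (median length 9.54 kb), 16 had a gained and 4 a lost region. Esrp2, a splicing regulator of epithelial transcripts, had a gained region (chr8:106134774-106135571) with folds of 9.71 and 11.2 in the day 9 libraries. The claudin genes Cldn7 (chr11:69970684-69971125, folds 6.55 and 7.21) and Cldn4 (chr5:134946757-134947193, folds 6.87 and 8.69) code for tight junction proteins. Lsr, a receptor of tricellular junctions, had folds of 6.15 and 8.08 at chr7:30973281-30973947. Dsp, which codes for desmoplakin of desmosomes, had 4 gained regions and Krt8 3. Krt8, Grhl2 and Rab25, for example, had a lost region and also a gained one.

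Acetylation was counted at the gained regions of the epithelial and the pluripotency genes side by side. Of 26 gained epithelial regions, 22 had H3K27ac in both day 9 libraries, 23 had none in any day 3 library, and 7 had it in both ESC libraries. Of 16 gained regions at pluripotency genes, 11 had H3K27ac in both day 9 libraries, 15 had it in both ESC libraries and 0 in any MEF or day 3 library. Over all 4941 gained regions, 55.0% had it in both day 9 libraries and 32.1% in both ESC libraries, while 86.6% had none in any day 3 and 85.1% none in any MEF library. The epithelial counts for day 3 and ESC are near these shares. The lists were not compared by a test, since their members were chosen with results of these data known.

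Among 22 genes of the pluripotency network (median length 9.90 kb), 11 had a gained and 4 a lost region. After Nr5a2 the best-ranked were Nanog (chr6:122707225-122707654, folds 9.79 and 9.70), Mybl2, a cell-cycle factor (7.37 and 7.05), and Nr0b1, an orphan nuclear receptor on chromosome X (6.66 and 7.46). The printed Nanog and Nr5a2 windows lie in these regions. A KLF4 peak was present in all 4 ESC libraries at 7 of the 16 gained regions, against 13.6% of all gained regions.

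The 4 lost regions of this list were at Tfcp2l1, Klf4, Sox2 and Pou5f1, with folds of 7.65 and 2.93, 6.90 and 2.40, 3.37 and 3.45, and 3.61 and 2.93 in the EA-3702 and DG-4040 day 3 libraries. Klf4, Sox2 and Pou5f1 are also coded by the OKSM cassette, and their regions lay inside the gene bodies, 0.723 to 1.41 kb from a gene end. Reads of the cassette could fall there, and their part in these peaks was not tested.

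Early and intermediate reprogramming genes had 2 lost, 17 gained and 23 common regions. Among 20 genes (median length 20.1 kb), 10 had a gained region and 1, the fibroblast surface gene Cd44, lost ones. Alpl, the alkaline phosphatase used to stain reprogramming colonies, had 3 gained regions, the strongest at chr4:137801253-137801666 with folds of 10.8 and 8.99. Mycn, a Myc family gene, had 2 (6.41 and 5.27 in the stronger), and Sall4, a zinc finger factor of early embryos, had 2 (4.85 and 7.64). Fut9, a fucosyltransferase that makes the SSEA1 epitope by which day 9 cells were sorted, had 2 gained regions (6.09 and 6.79 in the stronger), and Fut4 had 1.

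Markers of other lineages the culture could hold had 5 gained, 1 common and 0 lost regions. Among the 12 extra-embryonic, neural and blood genes (median length 22.4 kb), 2 (16.7%) had a gained region and 0 a lost one. They were Elf5, an epithelial and trophoblast ETS factor with 4 gained regions, and Neurog2, a neural bHLH factor with 1.

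**Figure D5:**
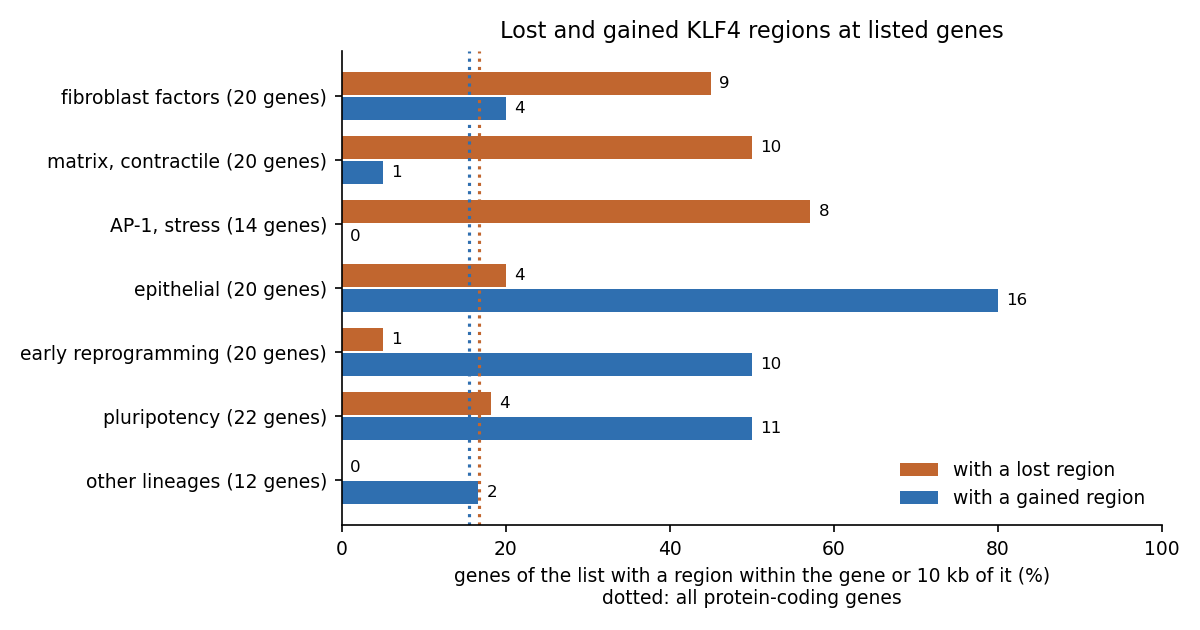
Share of the genes of each list (horizontal axis, %) with a lost or a gained KLF4 region in the gene or within 10 kb, with the number of genes beside each bar. Dotted lines give the shares over all protein-coding genes, 16.8% lost and 15.5% gained. The fibroblast, matrix and AP-1 lists lie well above the first, and the epithelial, reprogramming and pluripotency lists well above the second. The epithelial (20%) and pluripotency (18.2%) lists are near the first, and the fibroblast (20%) and other-lineage (16.7%) lists near the second.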

How the data were processed

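KLF4 and H3K27ac ChIP-seq peak lists, 1 per library, were used; the 13 input libraries were not analysed here. The submitters' processing notes name the build mm10, cutadapt 1.8.1, Bowtie2 2.2.5, deepTools 2.3.6 and MACS2 2.1.1, without settings; the control used is not given in the sources used here. The authors deposited for each peak its score, its fold enrichment as a ratio, and −log10 of the p-value and q-value; these were used within a list alone. The lowest deposited −log10 p was 2.00 to 2.09, so lists end near p 0.01, and the summit column is empty.

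Peaks overlapping by 1 bp were merged (Python 3.11.15, numpy 2.4.6, pandas 2.3.3). Background was measured with a shift of 1 Mb. Genes and windows came from RefSeq tables of GRCm38.p6, the assembly behind mm10; all 128 listed genes were matched, and chromosome 18 windows were not used here. A set of 3 exact permutation tests on 1 value per library was made, with Benjamini-Hochberg adjustment and a threshold of 0.05. The members and the gene lists were chosen with earlier results of these data known. Named were the 10 best-ranked regions of each class, up to 4 genes per list and class by the best rank of their region, and the 5 genes with most regions; best-ranked regions inside a gene bear its name even where its end is over 50 kb away; the counts given for Snai1, Smad3, Fosl2, Atf3, Dsp, Krt8 and Fut4 were added after their values were seen. Printed windows, with at least 150 bp in a region, were chosen in the same way. Alternatives took the top 50% of each list, the same number of top peaks, a q-value of at most 0.01, 200 bp about each midpoint, an overlap of 50% of the shorter interval, permutation within batch or replicate number, and leaving out each library; peaks covering 50% of the merged region, and exchanged day 6 numbers, were added after seeing the data. The class and test code was tested on simulated data with known answers. The values of 1 listed gene are not reported here by name.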

Additional observations from a re-analysis of the deposited data

How the results depend on the processing

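Depth and immunoprecipitation efficiency are unknown and a peak list stops at a threshold, so lost and gained describe lists, not occupancy. Day, sort and, in part, batch coincide.

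For lost, gained and common regions the top 50% of each list gave 3421, 2735 and 4940. A q-value of at most 0.01 gave 2787 lost and 5813 common regions, with 3865 gained, and peaks covering 50% of the merged region 3546 lost and 4815 common, with 4826 gained. Leaving out each library gave 6272 to 16848 lost, 5874 to 8546 gained and 11272 to 13320 common regions. The 50% overlap of the shorter interval cannot change these classes, since each peak lies within its merged region. The slope and F tests kept their direction and stayed below 0.05 under every alternative run, with slopes of 4.25 to 7.13 and F of 34.4 to 396. The replicate block gave the same slope of 6.48 (exact permutation, p = 0.0417, as low as 24 arrangements allow) and F of 144 (p = 0.00116 over 3456 labelings), as it did with exchanged day 6 numbers. Same-numbered libraries of batch DG-3458 did not deviate together (correlations of -0.0164 to 0.00895 over regions). No known pair was there to show what a shared culture would give, so pairing by number is not excluded. The difference between ESC and day 6 was -0.71 points with classes from batch EA-3702 alone (exact permutation test, p = 1.0) and 4.05 to 19.7 when a library was left out (p = 0.10 to 0.60).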

Other observations

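Chromosome X held fewer lost regions for its size than any autosome. Of its 1088 merged regions 51 were lost (4.69%) and 108 gained (9.93%), so that gained regions were 67.9% of both, against 42.9% to 53.6% on the 19 autosomes. Lost regions were 8.75% to 11.3% of the regions on an autosome and gained ones 8.01% to 10.7%. Common regions were also fewer on X, at 13.2% of its regions against 17.2% to 20.8% on an autosome. Peaks on X were 1.91% and 1.41% of the EA-3702 and DG-4040 day 3 lists and 2.05% and 1.98% of the day 9 lists, so that the DG-4040 library, on which the lost class depends, also had the lowest share on X. The part of that library in the low lost and common counts was not tested.

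Genes with the most lost regions were Ptprm, a receptor tyrosine phosphatase of cell contacts (8), Iqsec1 (7), Cacna2d3, a calcium channel subunit (6), and the overlapping genes Schip1 and Iqschfp, which share the same 7. Gained regions were most numerous in Magi2, a junctional scaffold (7), Ptprn2 (7), Arhgap26 (6), Kazn, which codes for the desmosome-associated protein kazrin (5), and Lypd6b (5). These genes are 137 to 1485 kb long, against a median of 17.3 kb over all protein-coding genes. Ptprm and Cacna2d3 had 0 gained regions, and Ptprn2, Kazn and Lypd6b had 0 lost ones. Such genes are usual. Over all protein-coding genes, 2837 of the 3629 with a lost region had no gained one. Likewise, 2561 of the 3353 with a gained region had no lost one.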
